A study of Mus musculus with 9 samples.

Results

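Transcripts of 10 genes that coat, remodel, break down or supply hepatic lipid droplets were followed in livers of Swiss mice aged 10 to 12 weeks: Plin2, Plin4, Plin5, Cideb, Cidec, Pnpla2, Pnpla3, G0s2, Cd36 and Fabp1. They were taken by symbol, and each of the 10 symbols matched 1 of the 25781 genes in the deposited table. The 3 groups, with 3 libraries each, a control group, a group dosed with 40 mg/kg of β-CYP (the β-CYP group) and a group dosed with the same 40 mg/kg of β-CYP plus 50 µg/kg of Na2SeO3, sodium selenite (the selenite group). What β-CYP stands for is not written out in the labels, and no vehicle is named for the controls. Every selenite mouse also received β-CYP, so selenite alone was not measured. The labels leave unsaid if 3 animals or fewer gave the 3 libraries of each group. The p-values therefore reflect library-to-library spread alone, and that spread may be technical.

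A lipid droplet is a core of triglyceride and sterol ester under a single layer of phospholipid, and in hepatocytes it buffers the fatty acids that arrive from plasma or are made in the cell. Perilipins coat the droplet and limit the access of lipases. CIDE proteins sit where droplets touch and let lipid pass from small to large ones, adipose triglyceride lipase (the product of Pnpla2) starts triglyceride breakdown, and the small protein G0S2 inhibits that lipase. CD36 takes up long-chain fatty acids at the plasma membrane, and FABP1 carries them through the hepatocyte cytosol.

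Values are scaled counts, that is, reads divided by a factor for the library that sets the typical gene equal between libraries. Changes are log2 differences of the scaled count plus 1, with the standard error (SE) of limma's model over all 9 libraries. A change is said to pass, or a gene to rise or fall, where limma's p-value adjusted over the 20145 genes tested (Benjamini-Hochberg) is under 0.05. Libraries held 28630269 to 36029560 reads. Albumin mRNA made up 6.01% to 7.72% of reads, the leading mark of liver. Control replicate 2 stood apart in an rRNA-like transcript, AY036118, with 5.04% of its reads against 0.0807% to 0.220% in the other 8 libraries. Libraries of 1 group differed by more than sampling noise: over genes, the median chi-square of a pair of libraries was 3.28 to 3.75 times that of counting error alone. The 8 hepatocyte markers took 9.78% to 10.1% of reads in β-CYP, more than in control (8.18% to 9.10%) or selenite (8.46% to 8.53%). That sum is mostly albumin. Marker by marker, 7 of the 8 fell when selenite was added, where 12.3% of all genes tested fell. Against control, 7 of the 8 were lower in selenite, where 14.5% of all genes were lower. Among these 7 were Tat (-1.88 ± 0.018 on the log2 scale against control), Ass1 (-0.99 ± 0.020) and Hnf4a (-0.37 ± 0.027). The remaining marker, Apoa1, was higher in selenite than in control (0.26 ± 0.023). With β-CYP against control, 3 of the 8 rose and 3 fell, where 7.72% of all genes rose and 8.58% fell. Albumin, at -0.13 ± 0.019 in selenite against control, depended on the scale. Its share of reads was 6.37% to 6.44% in selenite and 6.01% (replicate 2) to 6.63% in control. The part of the hepatocyte markers in the falls described here was not tested. The 7 spermatid markers, of a tissue other than liver, summed to 266 to 328 reads in control, with 0 to 5 in selenite and 3 to 8 in β-CYP. All 7 were lower in both treated groups, where 14.5% (selenite) and 8.58% (β-CYP) of all genes were lower than in control. Mitochondrial transcripts took 7.91% to 8.18% of control reads, above the selenite (6.67% to 6.88%) and β-CYP libraries (5.68% to 5.79%). The part of either in the differences from control was not tested. In a bulk sample, fewer cells of a type and less RNA per cell cannot be told apart.

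Transcripts of the 10 genes covered a wide range of levels. Scaled to exon length and total reads (RPKM), Fabp1 was the highest in each group, at 6261 ± 333 in control (mean ± SD, n = 3). Cideb (138 ± 7.41), Plin2 (63.0 ± 4.26), Pnpla2 (20.9 ± 2.62), G0s2 (17.1 ± 1.14), Plin5 (12.2 ± 1.002) and Cd36 (7.31 ± 0.436) followed on this per-length scale in control. Plin4 (0.694 ± 0.0427), Cidec (0.691 ± 0.138) and Pnpla3 (0.405 ± 0.122) came last, and the first 2 of these did not differ beyond their spread. In selenite the order changed at 3 places: Plin2 (169, from 163 to 173 in the 3 libraries) stood above Cideb (116 ± 3.27), G0s2 (54.9 ± 3.08) above Pnpla2 (27.2 ± 1.117) and Cidec (5.04 ± 0.585) above Plin4 (1.39 ± 0.0540). Cidec lay so close to Cd36 (5.08 ± 0.687) there that the 2 did not differ beyond their spread. G0s2 stood above Pnpla2 in β-CYP as well, at 43.3 ± 1.49 against 27.4 ± 1.44. Total reads, the base of this scale, include the AY036118 reads of control replicate 2, which widens the control SDs.

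**Figure D1:**
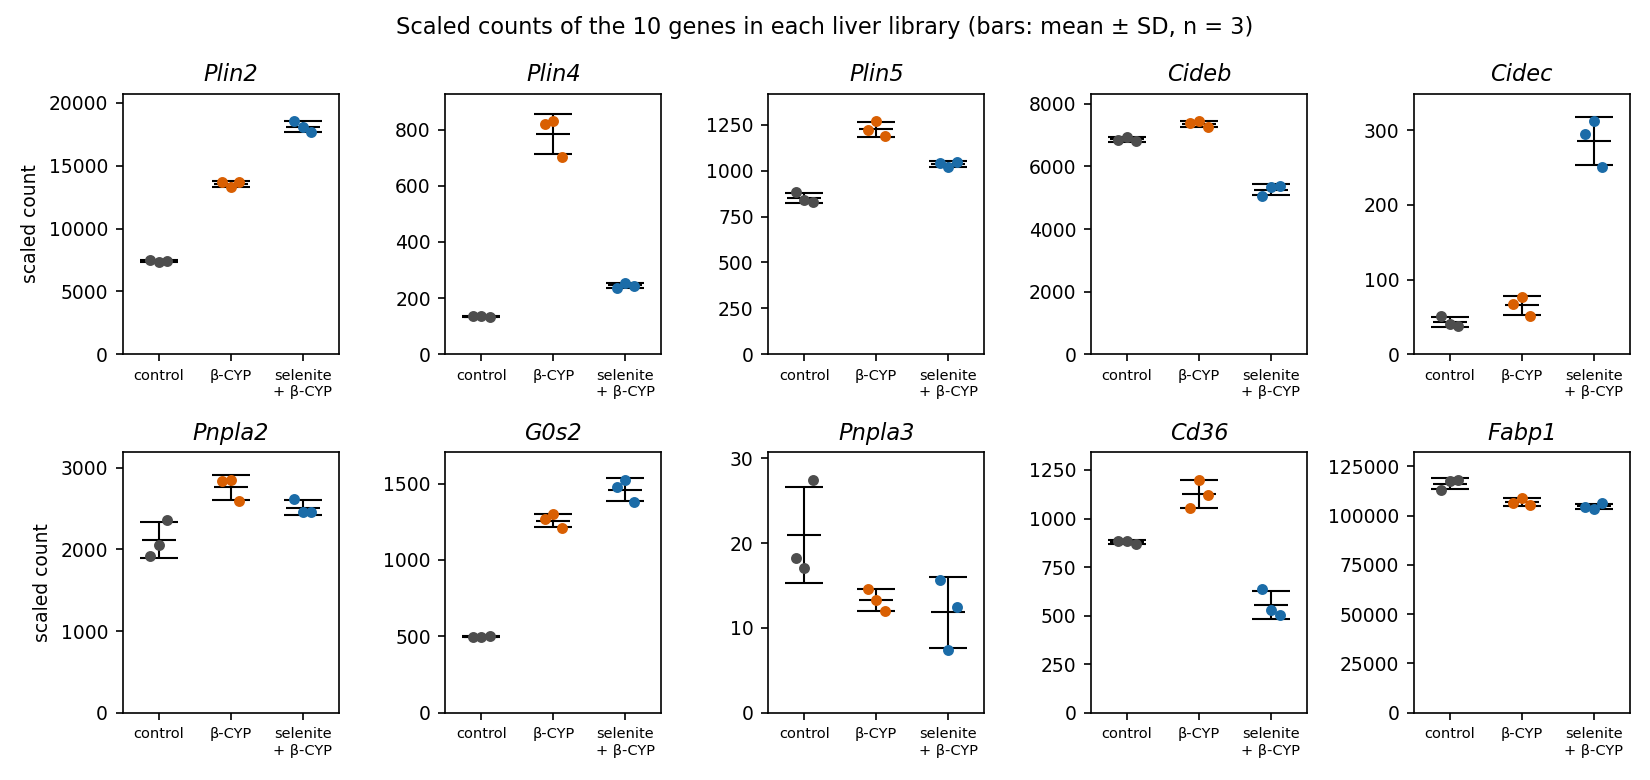
Scaled counts (y axis, each panel from 0) of the 10 genes in each of the 9 liver libraries, with points for libraries and bars for the mean ± SD of the 3 libraries of a group. Plin2 and G0s2 climb over the 3 groups, Plin4 and Cd36 are highest in β-CYP, and Cidec is high in selenite, at 250 to 312 against 37.7 to 76.6 in the other 6 libraries.

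Stretches upstream of 3 of these genes are shown for reference, because the peroxisome proliferator-activated receptors (PPARs), lipid-sensing nuclear receptors, are known to drive several droplet and uptake genes. All 10 genes had at least 1 window in RefSeq's promoter table (GRCm38.p6, 300 bases around a transcript start). The 250 bases before each start were searched on both strands for a direct repeat of the kind PPARs bind (AGGNCA, any 1 base, AGGNCA), for CACGTG, for TATAAA and for GGGCGG. Of the 32851 windows in the table, 0.338% held the direct repeat, 6.02% CACGTG, 12.4% TATAAA and 32.7% GGGCGG. Fabp1 was the only one of the 10 genes with the direct repeat, on the minus strand of the window, at 67 to 55 bases before the start. It and Cideb held TATAAA, 6 of the 10 held GGGCGG, and CACGTG was found in 0. A match is a description of letters and not a measured site. Fabp1 is shown for the direct repeat, Cidec and Cd36 for their large and opposite changes with selenite. Capitals mark the matched letters of the direct repeat in Fabp1 and of GGGCGG, present at 2 places, in Cd36, and the Cidec stretch holds none of the 4 motifs. Sequences run 5′ to 3′ along the gene's strand. The Fabp1 stretch (chr6:71199629-71199826, plus strand) stops 53 bases before the start, where an annotated exon begins. The stretches of Cidec (chr6:113435761-113436010, minus strand) and Cd36 (chr5:17835897-17836146, minus strand, inside the gene's own span, since other transcripts start further upstream) run from 250 to 1 base before a start.
Fabp1: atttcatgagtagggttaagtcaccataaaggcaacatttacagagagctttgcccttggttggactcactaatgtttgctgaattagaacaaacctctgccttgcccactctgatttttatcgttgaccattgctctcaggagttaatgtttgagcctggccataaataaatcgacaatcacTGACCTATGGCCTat
Cidec: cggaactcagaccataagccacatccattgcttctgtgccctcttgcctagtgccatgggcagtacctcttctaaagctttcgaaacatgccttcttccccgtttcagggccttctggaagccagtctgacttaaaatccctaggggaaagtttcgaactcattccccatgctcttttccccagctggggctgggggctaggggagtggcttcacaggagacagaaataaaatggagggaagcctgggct
Cd36: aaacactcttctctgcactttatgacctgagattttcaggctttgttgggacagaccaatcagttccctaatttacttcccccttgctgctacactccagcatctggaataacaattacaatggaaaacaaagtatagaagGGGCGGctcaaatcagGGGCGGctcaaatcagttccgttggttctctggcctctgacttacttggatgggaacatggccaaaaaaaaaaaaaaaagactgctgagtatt

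In livers given β-CYP, 7 of the 10 genes rose against control, 1 fell and 2 did not pass, where 16.3% of all genes tested passed (7.72% higher and 8.58% lower). The largest rise was that of the coat protein gene Plin4, and the lipase inhibitor gene G0s2 and the main hepatic coat gene Plin2 followed. The rises of the lipase gene Pnpla2, the coat gene Plin5 and the uptake receptor gene Cd36 were smaller. The median log2 change over the 10 was 0.46, against -0.0013 over all genes tested. The libraries of the 2 groups did not overlap for any of the 10, against 31.6% of all genes tested. The 10 were chosen with earlier results of these data known, so their contrasts with all genes, here and below, are descriptions only.

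With selenite added to β-CYP, 3 of the 10 genes rose, 4 fell and 3 did not pass (23.9% of all genes passed, 11.6% higher and 12.3% lower). Cidec rose most, Plin2 and G0s2 rose further, and Plin4, Cd36, Cideb and Plin5 fell. The median log2 change was -0.17, against 0.017 over all genes. The libraries did not overlap for 7 of the 10 (37.8% of all genes). Against control, the selenite group was higher for 6 and lower for 3 (28.9% of all genes passed, 14.4% higher and 14.5% lower), with a median log2 change of 0.27 against 0.027 over all genes, and without overlap for 10 of the 10 (41.8% of all genes). The 3 comparisons share their groups of libraries, so their values are set side by side and were not compared with each other. Setting total reads equal raises the median log2 change of all genes to 0.14 for selenite against β-CYP and 0.16 for selenite against control, so small changes there depend on the scaling.

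**Figure D2:**
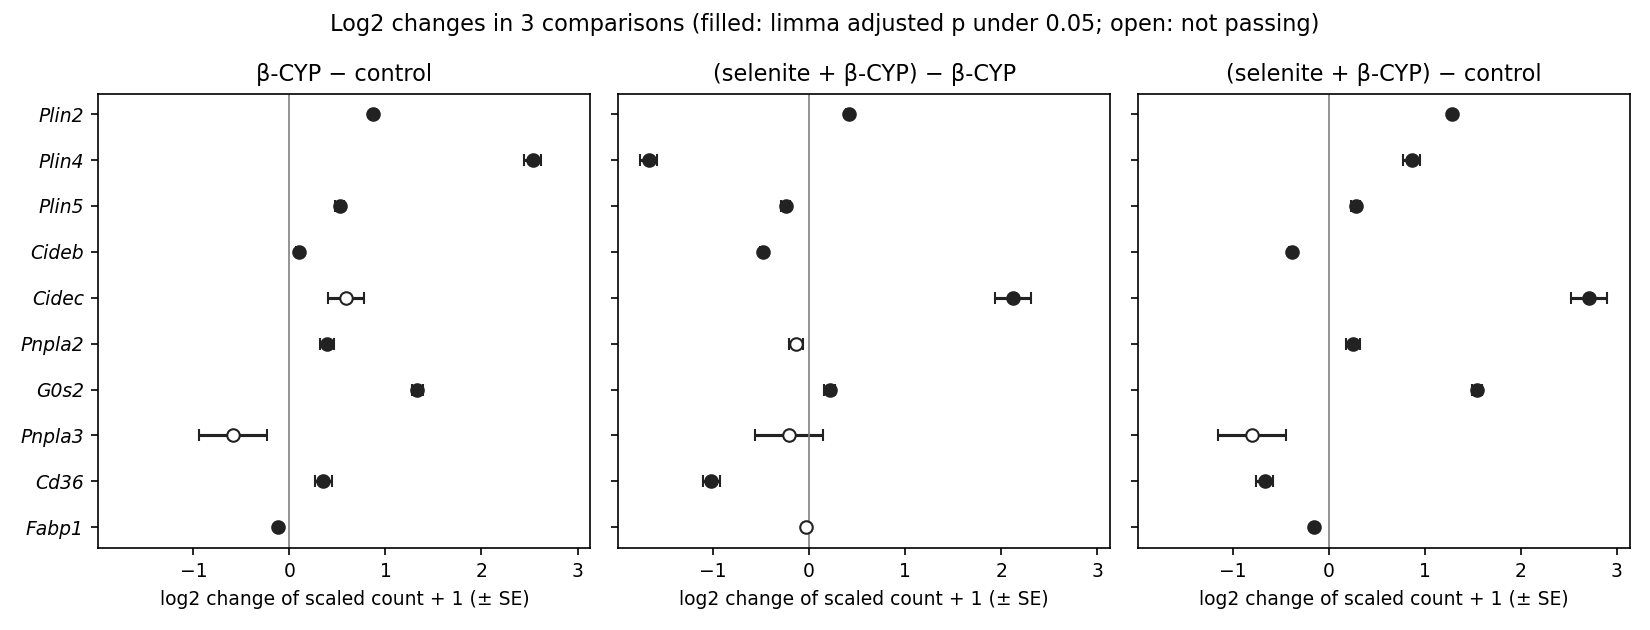
Log2 change of the scaled count plus 1 (x axis, with the SE of limma's model) for the 10 genes in the 3 comparisons, with filled points where the adjusted p is under 0.05. Plin4 lies at 2.53 in β-CYP against control and at -1.67 when selenite is added, whereas Cidec lies at 0.59 and 2.12.

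Plin2, the perilipin found on droplets of most cells and the usual coat in hepatocytes, rose in steps over the 3 groups. It had 7477, 7374 and 7403 scaled counts in the control libraries, 13725, 13283 and 13683 in β-CYP, and 18513, 18076 and 17651 in selenite. No library of 1 group reached the range of another. The log2 change was 0.87 ± 0.025 in β-CYP against control (limma adjusted p = 1.4e-08) and 0.41 ± 0.025 when selenite was added (adjusted p = 1.7e-06), so the level in selenite was 2.44-fold that of control. Its direction and call held under every alternative run, with a log2 change of 0.86 to 0.89 for β-CYP and 0.38 to 0.68 for selenite against β-CYP.

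Plin4, a perilipin best known from adipocytes that binds nascent droplets, took another course. It had 136, 135 and 133 scaled counts in control and 821, 829 and 703 in β-CYP, and fell back to 237, 256 and 243 in selenite. The 3 groups were apart, with selenite between the other 2 and closer to control. The log2 change was 2.53 ± 0.086 with β-CYP (limma adjusted p = 4.9e-08), -1.67 ± 0.086 when selenite was added (adjusted p = 5.7e-07) and 0.86 ± 0.086 in selenite against control (adjusted p = 4.9e-05). Adiponectin (Adipoq), a defining adipocyte gene, had 0 reads in all 3 β-CYP libraries, where Plin4 was highest, as did the adipocyte coat gene Plin1. In control, Adipoq had 7, 18 and 9 reads.

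Plin5, which tethers droplets to mitochondria in oxidative tissues, followed the same order of groups as Plin4 over a narrower range. It had 883, 843 and 832 scaled counts in control, 1221, 1268 and 1188 in β-CYP, and 1040, 1018 and 1048 in selenite, with no overlap between groups. With β-CYP the log2 change was 0.52 ± 0.047 (limma adjusted p = 4.7e-05) and -0.24 ± 0.047 when selenite was added (adjusted p = 0.00455). The fall with selenite did not pass when library totals were set equal, at -0.12 with or without AY036118 (adjusted p = 0.284 and 0.176, 0.00206 to 0.284 over the alternatives).

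The make-up of the 3 perilipin transcripts moved with these changes. Per kilobase, Plin2 made up 83.0% ± 0.342 (SD, n = 3) of the sum of Plin2, Plin4 and Plin5 in control, 84.2% ± 0.757 in β-CYP and 90.5% ± 0.262 in selenite. Plin5 fell from 16.1% ± 0.342 to 12.8% ± 0.524 and 8.73% ± 0.250 of that sum, with no overlap between the groups. The share of Plin4 was 0.914% ± 0.00877, 2.96% ± 0.271 and 0.747% ± 0.0379. These shares are within a library, so a factor per library leaves them as they are. Plin3 is not part of that sum, and had mean scaled counts of 706 in control, 1155 in β-CYP and 1251 in selenite.

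Cideb is the CIDE gene of healthy hepatocytes and is also known for a part in loading very low density lipoprotein with lipid. It had 6859, 6941 and 6798 scaled counts in control, 7380, 7437 and 7267 in β-CYP, and 5066, 5349 and 5374 in selenite. Its level was lowest in the 3 selenite libraries, and β-CYP and control were close but did not overlap. Its log2 change was 0.10 ± 0.030 with β-CYP (limma adjusted p = 0.0470), -0.48 ± 0.030 when selenite was added (adjusted p = 1.8e-06) and -0.38 ± 0.030 in selenite against control (adjusted p = 7.6e-06). The small rise with β-CYP no longer passed when any 1 of the 6 libraries compared, or selenite replicate 2, was left out (adjusted p 0.0187 to 0.132 over single libraries left out). In GENCODE's annotation 76.3% of the exonic bases of Cideb overlap Nop9 on the opposite strand. No source used here gives whether the counting used strand, and Nop9 was listed at 502 to 750 reads per library.

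Cidec, also called Fsp27, is the CIDE gene of white adipocytes, where it enlarges droplets, and is known to appear in steatotic liver. It had 50.6, 40.3 and 37.7 scaled counts in control, 67.6, 76.6 and 51.8 in β-CYP, and 295, 312 and 250 in selenite. The control and β-CYP libraries nearly touched, at 50.6 and 51.8, whereas all 3 selenite libraries stood far above both. Adding selenite gave a log2 change of 2.12 ± 0.19 (limma adjusted p = 2.7e-05) and 2.71 ± 0.19 in selenite against control (adjusted p = 3.8e-06), a 6.56-fold difference. With β-CYP alone the value was 0.59 ± 0.19 and did not pass (adjusted p = 0.0658, or 0.0317 without β-CYP replicate 3, 0.0317 to 0.190 over the alternatives). With a replicate block the value passed (adjusted p = 0.0495), as it did with a minimum mean scaled count of 10 (adjusted p = 0.0491). Per kilobase, Cidec was 0.498% ± 0.0786 of the sum of Cideb and Cidec in control, 0.705% ± 0.127 in β-CYP and 4.17% ± 0.498 in selenite.

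Transcripts of pancreas and muscle moved with the selenite group, so they are given beside the rise of Cidec. The 11 exocrine pancreas markers summed to 40363 to 41147 reads in the selenite libraries, against 1157 to 1251 in β-CYP and 977 to 1075 in control, with 7 of the 11 at 0 in control and 6 in β-CYP. All 11 rose when selenite was added, where 11.6% of all genes tested rose. The 10 markers of skeletal and heart muscle summed to 1015 to 1068 reads in selenite, against 19 to 23 in β-CYP and 17 to 20 in control, and 7 of the 8 tested rose when selenite was added. Their part in the level of Cidec, and in those of the other genes, was not tested. Of the 10 adipocyte markers, 8 were in the table used here, and their sum was 1359 to 1444 reads in β-CYP and 1352 to 1492 in selenite, above the 745 to 879 of control. Most of those reads were of Fabp4 and Lipe, which other cells also express. Marker by marker, 3 of the 8 rose and 0 fell when selenite was added: Adipoq, Plin1 and Tusc5. Each was at 0 reads in all β-CYP libraries, and Tusc5 had 7, 8 and 5 reads in selenite. The call of Plin1 was lost under some alternatives (limma adjusted p up to 0.0890). The part of adipocytes in the level of Cidec was not tested. Adipoq had 18, 5 and 9 reads in selenite, a range close to that of control, where Cidec was at 37.7 to 50.6 scaled counts. Plin1 had 4, 9 and 9 reads in selenite and 5, 9 and 0 in control.

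**Figure D3:**
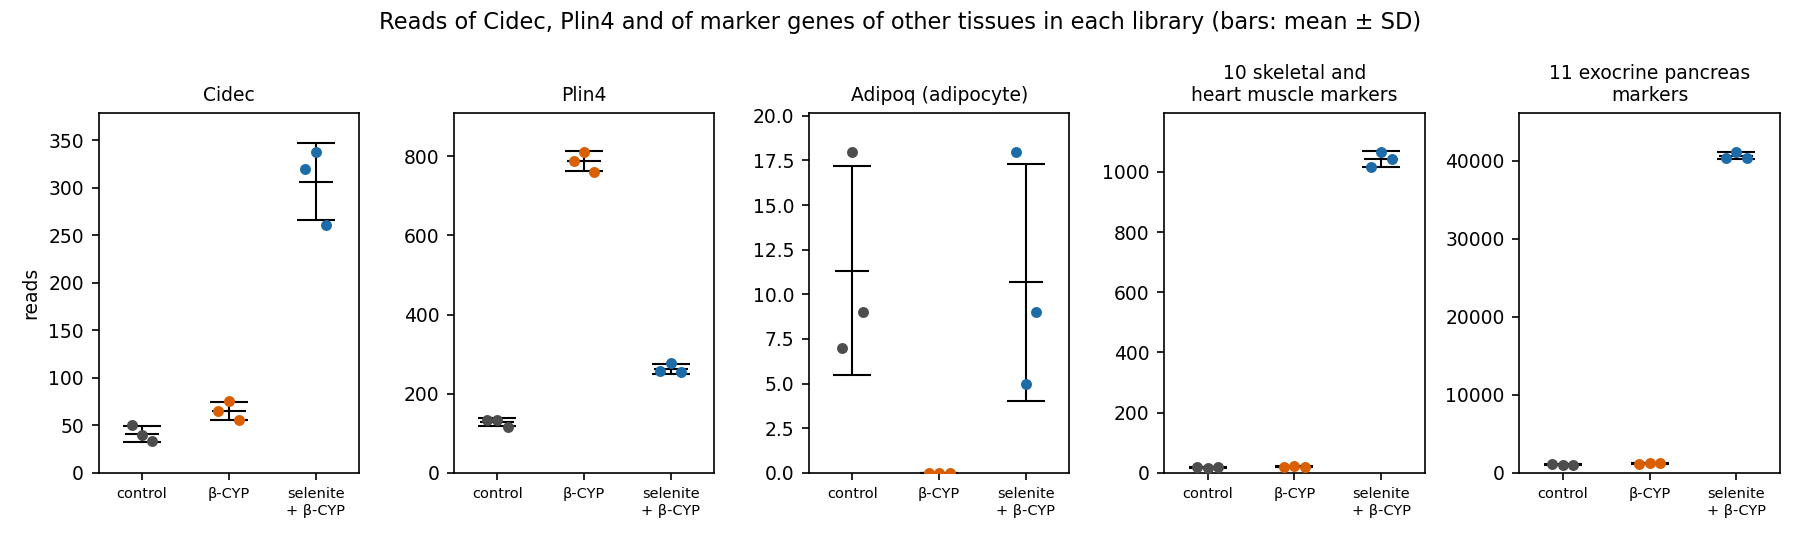
Reads (y axis, not scaled, each panel from 0) of Cidec, Plin4, the adipocyte gene Adipoq, 10 muscle markers and 11 pancreas markers in each library, with bars for the mean ± SD of the 3 libraries of a group. Pancreas and muscle reads stand apart in selenite, as Cidec does. Adipoq ranges over 7 to 18 reads in control and 5 to 18 in selenite and is at 0 in β-CYP. Plin4 is highest in β-CYP. Other adipocyte markers are not drawn.

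Pnpla2 encodes adipose triglyceride lipase, which takes the first fatty acid off triglyceride. It had 1924, 2060 and 2358 scaled counts in control, 2838, 2852 and 2589 in β-CYP, and 2618, 2461 and 2458 in selenite. All 6 treated libraries were above the controls, and the 2 treated groups overlapped. The log2 change was 0.39 ± 0.073 with β-CYP (limma adjusted p = 0.00512) and 0.25 ± 0.073 in selenite against control (adjusted p = 0.0265). The latter did not pass without control replicate 1 or 2 or without any of the 3 selenite libraries (adjusted p 0.00416 to 0.0933 over single libraries left out). With a replicate block it did not pass either (adjusted p = 0.0558). When selenite was added the value was -0.13 ± 0.073 and did not pass (adjusted p = 0.232).

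G0s2, whose product binds and inhibits that lipase, changed more than the lipase gene itself. It had 497, 495 and 504 scaled counts in control, 1268, 1298 and 1209 in β-CYP, and 1477, 1524 and 1377 in selenite. The controls were tightly grouped and lowest, and the selenite libraries were all above those of β-CYP. On the log2 scale the change was 1.33 ± 0.053 with β-CYP (limma adjusted p = 1.4e-07) and 1.55 ± 0.053 in selenite against control (adjusted p = 2.3e-08). The further rise with selenite was small, 0.21 ± 0.053 (adjusted p = 0.0167), and did not pass without β-CYP replicate 3 (adjusted p = 0.0597) or selenite replicate 2 (adjusted p = 0.0599).

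The ratio of G0s2 to Pnpla2 within a library, which a factor per library barely touches, rose over the 3 groups. On the log2 scale it was -2.08 ± 0.137 (SD, n = 3) in control, -1.13 ± 0.0322 in β-CYP and -0.78 ± 0.0805 in selenite. The libraries were -1.95, -2.05 and -2.22 in control, -1.16, -1.14 and -1.10 in β-CYP, and -0.83, -0.69 and -0.84 in selenite, with no overlap. The differences were 0.94 ± 0.081 (SE) for β-CYP against control, 0.35 ± 0.050 for selenite against β-CYP and 1.29 ± 0.092 for selenite against control. The exact two-sided permutation test gave p = 0.1 for each of the 3 pairs, 0.1 after adjustment over them, which is the smallest value that 3 libraries against 3 allow and cannot pass the threshold.

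**Figure D4:**
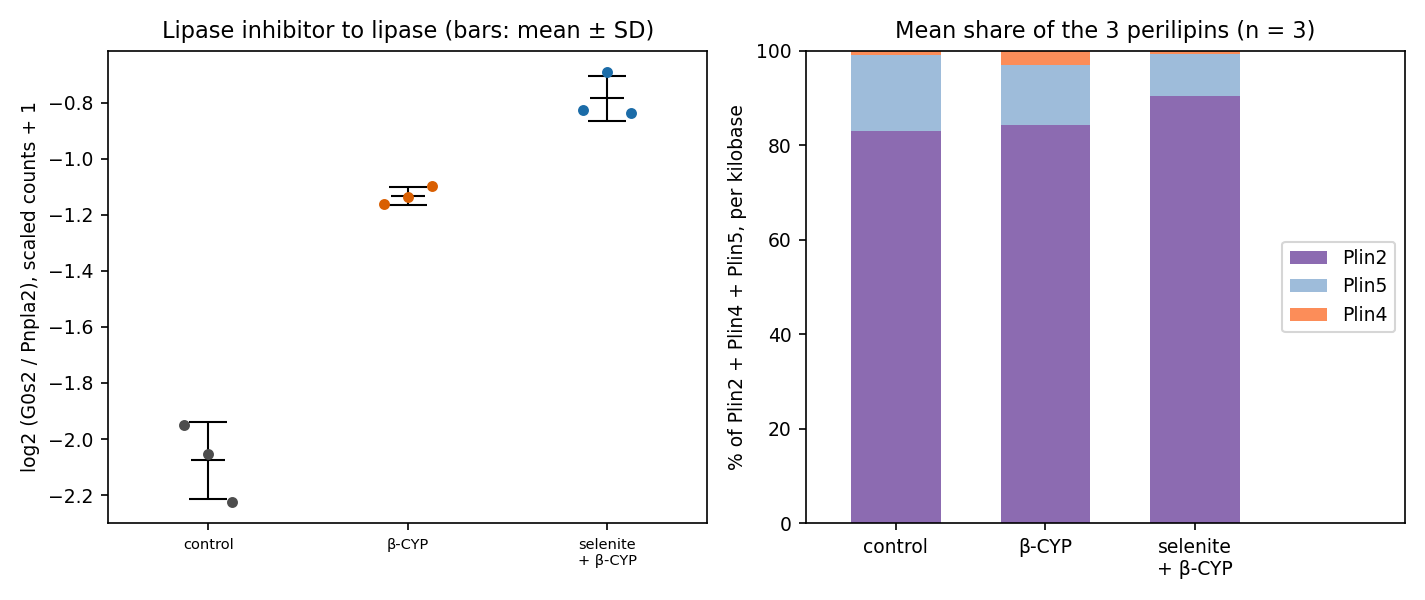
Left, log2 ratio of G0s2 to Pnpla2 (scaled counts plus 1) in each library, with bars for the mean ± SD. Right, mean share of Plin2, Plin5 and Plin4 in their sum per kilobase of exon, in percent (n = 3). The ratio runs from -2.22 to -1.95 in control up to -0.84 to -0.69 in selenite, and the share of Plin2 from 83.0% in control to 90.5% in selenite.

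Pnpla3, a relative of Pnpla2 with activity toward triglyceride and retinyl esters that is known as a target of insulin and SREBP1 signalling, was barely expressed. It had 18.2, 17.1 and 27.4 scaled counts in control, 14.6, 13.3 and 12.0 in β-CYP, and 15.7, 7.38 and 12.5 in selenite. The control libraries were above all others, but counts this low carry a counting error of 22.5% to 28.1% of the level. The log2 changes were -0.59 ± 0.35 with β-CYP, -0.21 ± 0.35 when selenite was added and -0.80 ± 0.35 in selenite against control, and none passed (limma adjusted p = 0.327, 0.748 and 0.128).

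Cd36, the fatty acid translocase, is low in normal mouse hepatocytes and is also expressed by macrophages and endothelium. It had 885, 885 and 870 scaled counts in control, 1054, 1199 and 1123 in β-CYP, and 639, 528 and 503 in selenite. β-CYP was the highest group and selenite the lowest, without overlap. Adding selenite gave a log2 change of -1.02 ± 0.089 (limma adjusted p = 2.2e-05) and -0.67 ± 0.089 in selenite against control (adjusted p = 3.3e-04), both kept under every alternative run. The rise with β-CYP, 0.35 ± 0.089 (adjusted p = 0.0233), did not pass when any 1 of the 3 controls, β-CYP replicate 2 or β-CYP replicate 3 was left out (adjusted p 0.00449 to 0.0862 over single libraries left out). Of the 8 markers of Kupffer cells and macrophages, 6 rose and 0 fell when selenite was added, and the 8 of sinusoidal endothelium were 2 up and 3 down. Of all genes tested, 11.6% rose and 12.3% fell there. Macrophage markers summed to 0.0453% to 0.0462% of reads in selenite and 0.0345% to 0.0348% in β-CYP, so they were higher where Cd36 was lower. Endothelial markers summed to 0.0321% to 0.0325% and 0.0307% to 0.0313% of reads, but to 9829 to 9884 and 10224 to 10443 scaled counts, so the direction of that sum depends on the scale. The part of either cell type in the level of Cd36 was not tested.

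Fabp1, the liver fatty acid binding protein, was the most abundant of the 10 per length and had small changes throughout. It had 112887, 117386 and 118120 scaled counts in control, 106424, 109127 and 105226 in β-CYP, and 104582, 103466 and 106190 in selenite. Controls were above all 6 treated libraries, and the treated groups overlapped. The log2 change was -0.12 ± 0.022 with β-CYP (limma adjusted p = 0.00472) and -0.15 ± 0.022 in selenite against control (adjusted p = 6.8e-04). The value when selenite was added was -0.030 ± 0.022 and did not pass (adjusted p = 0.401). These small values depended on the scaling. With equal totals neither fall passed (adjusted p = 0.189 and 0.884), and the value for selenite against β-CYP turned to 0.097 with equal totals, 0.095 without AY036118 and 0.089 under quantile normalization, the last 2 passing (adjusted p = 0.0295 and 0.0234).

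The genes around these 10 were read from fixed lists, and the same fit gave their values. Of 16 other genes of droplet coat, assembly and remodelling, 2 rose and 1 fell with β-CYP (median log2 change 0.0080), a share near the 16.3% of all genes that passed. These were the widely expressed perilipin gene Plin3 (0.71 ± 0.057, from 706 to 1155 scaled counts), Fitm1, which helps partition triglyceride into droplets (0.86 ± 0.13), and the droplet-bound hydrolase gene Ldah (-0.48 ± 0.14). The call of Ldah was lost without any 1 control or selenite library (limma adjusted p up to 0.145 over the alternatives). When selenite was added 2 rose and 7 fell (median -0.23, with 23.9% of all genes passing, 11.6% higher and 12.3% lower). With equal totals 2 rose and 3 fell. Hsd17b13, a hepatocyte droplet protein, fell from 14211 ± 159 to 9076 ± 170 scaled counts (SD, n = 3), and Fitm1 (-0.56 ± 0.13), seipin (Bscl2, -0.39 ± 0.057) and Fitm2 (-0.28 ± 0.042) also fell, the last not passing with equal totals (-0.15). In selenite against control, Plin3 stood at 0.82 ± 0.057 and Hilpda, another small inhibitor of adipose triglyceride lipase, at 1.17 ± 0.37, the latter from 34.9 ± 13.3 to 79.2 ± 26.1 scaled counts. Both passed, but the call of Hilpda (limma adjusted p = 0.0379) was lost without control replicate 1 or 2, without selenite replicate 1 or 3, and under 2 other alternatives (up to 0.137).

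Of 14 lipases and their partners, 1 rose and 5 fell with β-CYP (median log2 change -0.13, with 16.3% of all genes passing). When selenite was added 2 rose and 7 fell (median -0.15, 23.9% of all genes), or 3 rose and 2 fell with equal totals. In selenite against control 0 rose and 8 fell (median -0.31, 28.9% of all genes), or 1 rose and 6 fell with equal totals. Abhd5, the coactivator of adipose triglyceride lipase that G0S2 acts against, fell from 1015 ± 49.3 scaled counts in control to 715 ± 47.9 in β-CYP (log2 change -0.51 ± 0.069) and stood at 715 ± 40.3 in selenite. The lysosomal lipase gene Lipa fell by 0.56 on the log2 scale with β-CYP and was at -0.76 ± 0.032 in selenite against control. Monoacylglycerol lipase (Mgll), which takes the last fatty acid off, rose by 0.21 ± 0.039 with β-CYP. The carboxylesterase genes Ces1d (-1.03 ± 0.040) and Ces1f (-1.30 ± 0.021), whose products hydrolyse stored triglyceride, fell when selenite was added. They belong to a family of close copies, so their single values are uncertain.

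In the list of fatty acid uptake, binding and activation, 8 of 25 rose and 6 fell with β-CYP (median log2 change 0.064, with 16.3% of all genes passing), or 4 rose and 5 fell with equal totals. When selenite was added 6 rose and 10 fell (median -0.11, 23.9% of all genes), or 6 rose and 4 fell with equal totals. Fabp4, a fatty acid binding protein of adipocytes, macrophages and endothelium, rose from 282 ± 44.9 to 841 ± 11.2 scaled counts with β-CYP. Fabp5 fell from 1472 ± 24.9 in control to 647 ± 68.2 in β-CYP and rose to 3411 ± 40.1 in selenite. Fabp3, the heart and muscle form, had 0 reads in each control library, 0, 3 and 3 in β-CYP and 38, 73 and 39 in selenite, beside the muscle markers given above. The acyl-CoA synthetase gene Acsl1, which activates fatty acids, fell by 0.67 on the log2 scale with β-CYP, and Acsl3, an activating enzyme of growing droplets, fell by 0.53 with β-CYP and rose by 0.91 ± 0.068 when selenite was added. Angptl8, an insulin-responsive inhibitor of lipoprotein lipase, rose in both steps, from 249.3 ± 33.7 to 378 ± 11.3 and 800 ± 81.0 scaled counts.

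Of 18 glycerolipid synthesis genes, 0 rose and 6 fell with β-CYP (median log2 change -0.040, with 7.72% of all genes higher and 8.58% lower). When selenite was added 2 rose and 4 fell (median -0.24, with 11.6% of all genes higher and 12.3% lower), but 4 rose and 2 fell with equal totals. Dgat2, which makes triglyceride from diacylglycerol, went from 15063 ± 397 scaled counts in control to 12292 ± 148 in β-CYP and 10400 ± 252 in selenite. It passed at both steps, but the second did not pass with equal totals and turned to 0.023 under quantile normalization. The phosphatidate phosphatase gene Lpin1 fell by 0.20 with β-CYP and by 0.99 when selenite was added.

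Among 18 transcriptional regulators, 4 rose and 3 fell with β-CYP, and 2 rose and 9 fell when selenite was added (median log2 change 0.032 and -0.36, with 16.3% and 23.9% of all genes passing). Ppara itself did not pass with β-CYP (from 3804 to 3532 scaled counts, limma adjusted p = 0.163). It rose to 4404 when selenite was added (log2 change 0.32 ± 0.046), and that level also passed against control (0.21 ± 0.046). The xenobiotic receptor gene Nr1i2, known to act on Cd36, rose by 0.51 ± 0.045 with β-CYP. It fell by 0.52 ± 0.045 when selenite was added, to 1945 scaled counts, against 1954 in control. The coactivator gene Ppargc1a fell by 1.05 with β-CYP. With selenite, Pparg, a known driver of Cidec, fell from 259 ± 38.2 to 170 ± 20.6 (adjusted p = 0.0335 in limma's test). That call of Pparg was lost without any 1 β-CYP or selenite library or control replicate 2 (adjusted p up to 0.118), and with a replicate block. Srebf1, a driver of Pnpla3 and lipid synthesis, fell by 0.70.

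Of 12 reference targets of PPARA, 7 rose and 1 fell with β-CYP (median log2 change 0.39, with 16.3% of all genes passing), and 0 rose and 9 fell when selenite was added (median -0.28, with 23.9% passing). Levels of Cyp4a10, a fatty acid hydroxylase with close copies, went from 601 ± 55.9 to 1039 ± 75.5 and 142 ± 11.2 scaled counts. Set beside Cyp4a10, Plin4, Plin5 and Cd36 were likewise higher in β-CYP than in both other groups, whereas Plin2, G0s2 and Cidec were highest in selenite. With library totals set equal, 0 of the PPARA targets rose and 5 fell when selenite was added, 2 of the coat and assembly genes rose and 3 fell, and 3 of the regulators rose and 7 fell.

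**Figure D5:**
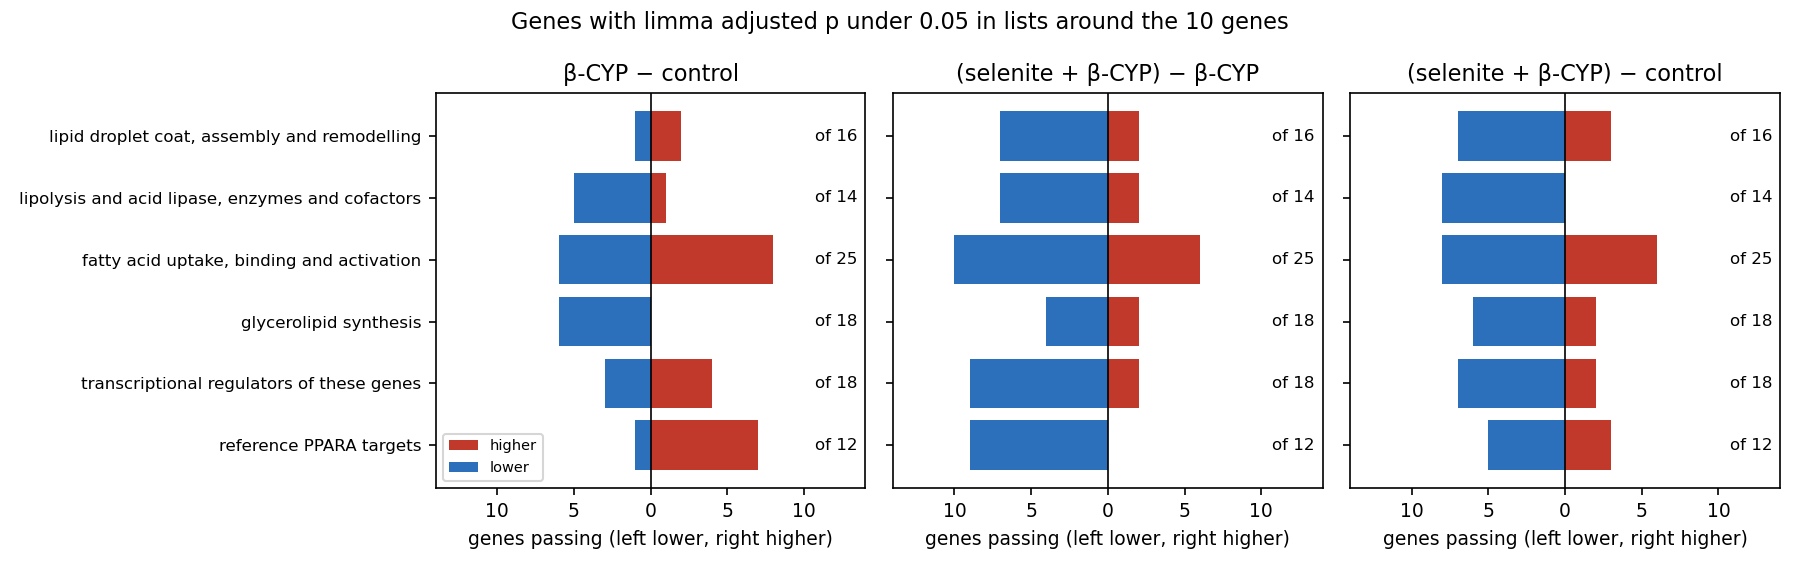
Number of genes with an adjusted p under 0.05 in limma's test (x axis, lower to the left and higher to the right of 0) in 6 fixed lists, for the 3 comparisons, with the number tested written at the right. The PPARA targets run from 7 higher and 1 lower with β-CYP to 0 higher and 9 lower when selenite is added. No gene of the lipase list passes as higher in selenite than in control.

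The genes outside the 10 whose levels most resembled theirs over the 9 libraries were found by Pearson correlation of log2 values among the 10520 genes whose mean scaled count reached 100. The libraries of a group share their treatment, so such values mostly describe the 3 group levels, and they are given without a p. Plin2 was most like Trp53inp2 (r = 0.998), the fibrinogen chain gene Fgb (0.998) and Gm15772 (0.996), and G0s2 most like Litaf (0.999), Serinc3 (0.998) and Inhbe (0.998). Genes most like Cidec included Ppl (0.995) and Pot1a (0.993), and Cd36 was most like Upb1 (0.989), Slco1a4 (0.988) and Cyp2j5 (0.986). Pnpla2, whose treated groups overlapped, was most like Tars (0.979), Rnf113a2 (0.968) and Heatr1 (0.953).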

How the data were processed

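RNA sequencing of 9 liver libraries was used, with a Trizol extraction and TruSeq RNA libraries per the labels' protocols. The design text and the library protocol name instruments of different makers. The authors deposited 1 table of log2 values, which equal the log2 of reads divided by a library factor, plus 1. The tools HISAT and Cufflinks and the build mm9 appear without roles, per the submitters' processing notes. No source used here gives the counting tool, annotation or strand setting. Undoing the log gave whole reads (within 0.02) for 100% of values, and the factors equal median-of-ratios factors up to a relative deviation of 6.1e-15.

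Limma 3.58.1 (R 4.3.3) fitted 3 group means to the deposited log2 values of all 9 libraries, with an intensity trend, for genes whose mean scaled count reached 1, two-sided, with Benjamini-Hochberg adjustment and a threshold of 0.05. Fold changes with a pseudocount of 1 understate changes of genes with few reads. The script was tested on simulated data. No column was left out. Exonic lengths came from GENCODE vM21 (GRCm38), another build than mm9, so only the coordinates of RefSeq promoter windows, on GRCm38.p6, are given. Libraries held 28630269 to 36029560 reads, and counting error per gene and group is given where it was large.

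The members and lists were chosen with earlier results of these data known. The text names the 10 genes, the adipocyte, muscle, pancreas, macrophage and endothelial markers, up to 6 passing genes per list and comparison with the largest changes, and the 3 most alike genes. Some results under this rule are not reported here. Ppara, Nop9 and the selenite values of Nr1i2 and albumin were named outside that rule, after their values were seen. Alternatives changed the pseudocount, filter, scaling (5 ways), weighting (limma's voom on the recovered reads), libraries and pairing.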

Additional observations from a re-analysis of the deposited data

How the results depend on the processing

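Of the 30 changes of the 10 genes, 20 kept their direction and side of the threshold under all alternatives run. For β-CYP against control, the rise of Cideb (0.10, adjusted p = 0.0470 in limma's test) did not pass with no filter on low values (0.10, adjusted p = 0.0591), equal totals (0.11), equal totals without AY036118 (0.087), equal medians (0.090) or a replicate block (0.10, adjusted p = 0.0722). It also did not pass without any 1 of the 6 libraries compared or without selenite replicate 2 (0.093 to 0.11 over single libraries left out). Cidec passed with a minimum mean scaled count of 10 and a replicate block (0.59 in both), and single libraries left out gave 0.47 to 0.75. Fabp1 was at -0.11 with equal totals and did not pass, so that 0 of the 10 genes fell there. Cd36 ranged from 0.31 to 0.40 with single libraries left out. For selenite against β-CYP, Plin5 did not pass with equal totals (-0.12) or without AY036118 (-0.12). Fabp1 turned to 0.097, 0.095 and 0.089 with equal totals, without AY036118 and under quantile normalization. Pnpla3 turned to 0.071 without selenite replicate 2 (-0.42 to 0.071 over single libraries left out), and G0s2 ranged from 0.18 to 0.25. For selenite against control, Fabp1 did not pass with equal totals (-0.012), without AY036118 (-0.037) or under quantile normalization (-0.056). Pnpla2 did not pass with equal medians (0.21), only the 6 libraries compared (0.25) or a replicate block (0.25), and ranged from 0.19 to 0.33 with single libraries left out. Same-numbered libraries did not deviate together (9 pairs, correlations -0.11 to 0.094), so replicate numbers were taken not to pair the samples. The replicate block changed no other call of the 10 genes, and of the other genes named it ended that of Pparg. Over all genes, equal totals changed the number of falls from 2468 to 1334 in selenite against β-CYP (1517 without AY036118, with 3533 rises in place of 2337) and from 2915 to 1763 in selenite against control. The 102 changes of other list genes taken here were, per list and comparison, the up to 6 passing ones with the largest absolute values. Of these, 83 kept direction and call under all alternatives, a count that does not describe the rest of the lists. Under quantile normalization Dgat2 (0.023) turned in selenite against β-CYP, and Hadha (0.12) in selenite against control. Equal totals and equal medians shift all genes of a library alike by construction, whereas quantile normalization does not, and otherwise the cause of these differences was not tested. A pseudocount does not apply to reads per kilobase, so that alternative has no value.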
